A study of Homo sapiens with 21 samples.

Results

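The genes described here are 6 IGF binding proteins (*IGFBP2*, *IGFBP3*, *IGFBP4*, *IGFBP5*, *IGFBP6* and *IGFBP7*) and 2 IGF receptors (*IGF1R* and *IGF2R*). These 8 genes were taken by symbol from a table of 23201 gene symbols, with earlier results of these data known. RNA was sequenced from HMLE cells, an immortalized line of human mammary epithelial cells in which TGFβ is used to set off an epithelial-to-mesenchymal transition (EMT). Untreated cells (d0) were compared with cells under TGFβ for 1, 4, 7, 10, 15 or 20 days (d1, d4, d7, d10, d15 and d20), with 3 libraries at each of the 7 timepoints and 21 in all. All libraries come from 1 cell line seeded at one density, and the only untreated libraries are those of d0, so days in culture and days of TGFβ cannot be told apart.

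IGF binding proteins are secreted proteins that hold IGF1 and IGF2 outside the cell, limit or prolong their access to receptors, and in part also bind the cell surface and matrix. *IGF1R* encodes the receptor tyrosine kinase that carries the growth and survival signal of IGF to PI3K and AKT, whereas *IGF2R* encodes the mannose 6-phosphate receptor, which brings IGF2 to the lysosome and sorts lysosomal enzymes without a kinase of its own. In epithelial cells *IGFBP3* is a long-known TGFβ target, and *IGFBP7*, also called MAC25, binds IGF weakly and insulin as well.

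The promoters of the 3 binding proteins with the largest changes are shown because *IGFBP3* went up and *IGFBP2* and *IGFBP5*, which lie next to each other among the protein-coding genes of chromosome 2, went down. RefSeq (GRCh38.p14) gave a promoter for 7 of the 8 genes, and *IGFBP7* had none. Each sequence is the 250 bases before the annotated start, read 5′ to 3′ on the strand of the gene, at chr7:45921273-45921522 (minus strand) for *IGFBP3*, chr2:216632578-216632827 (plus strand, the most upstream of 3 starts) for *IGFBP2* and chr2:216695550-216695799 (minus strand) for *IGFBP5*. Capitals mark matches, on either strand, to CAGGTG (the E-box of ZEB and SNAI factors) or to CAGAC (the SMAD box).
IGFBP3: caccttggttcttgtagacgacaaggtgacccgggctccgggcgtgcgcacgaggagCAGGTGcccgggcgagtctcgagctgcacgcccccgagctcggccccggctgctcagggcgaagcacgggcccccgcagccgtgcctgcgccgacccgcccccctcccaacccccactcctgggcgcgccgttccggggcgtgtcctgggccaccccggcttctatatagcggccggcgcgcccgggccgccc
IGFBP2: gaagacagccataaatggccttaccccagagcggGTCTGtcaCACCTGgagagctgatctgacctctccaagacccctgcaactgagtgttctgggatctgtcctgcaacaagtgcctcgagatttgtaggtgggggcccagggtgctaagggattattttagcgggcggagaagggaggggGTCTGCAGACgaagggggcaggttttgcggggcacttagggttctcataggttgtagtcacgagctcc
IGFBP5: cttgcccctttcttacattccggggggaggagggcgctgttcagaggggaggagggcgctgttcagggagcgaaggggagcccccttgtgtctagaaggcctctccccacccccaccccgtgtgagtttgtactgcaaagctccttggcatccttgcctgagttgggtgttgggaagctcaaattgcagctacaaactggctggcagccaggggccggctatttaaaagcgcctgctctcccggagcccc
The *IGFBP3* window held 1 E-box, starting 193 bases before the start, and no SMAD box. The *IGFBP2* window held 1 E-box and 3 SMAD boxes, of which 2 adjoin each other, and the *IGFBP5* window held neither motif. Of the windows not shown, that of *IGF2R* held 2 E-boxes and that of *IGFBP6* held 1. Those of *IGFBP4* and *IGF1R* held no E-box, and no window outside *IGFBP2* held a SMAD box. Of 35116 promoter windows of this length, 17.5% held the E-box, 38.0% the SMAD box and 6.57% an AP-1 site (TGANTCA), which none of the 7 windows held. Both strands were searched, and in the 3 windows shown no match overlaps another. *IGFBP3* was the most GC-rich of the 3, at 76% against 56.8% in *IGFBP2* and 61.2% in *IGFBP5*.

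The libraries held between 18847917 and 22667754 reads on genes. Away from d7, pairs of same-timepoint libraries had root mean square log2 differences between 0.21 and 0.24, but the third d7 library differed from the mean of the other d7 libraries by 0.45, more than from the means of d4 and d20 (0.43 each). It thus lay no nearer to the timepoint of its label than to d4 and d20, and the d7 results of the 8 genes are also given without it. All 10 TGFβ response genes checked were at least 2-fold higher on all 6 treated days. Of 6 basal epithelial markers, 2 were at least 2-fold higher at d20 (*LAMB3* and *ITGB4*) and 2 at least 2-fold lower (*KRT5* and *CDH1*). The mean of *KRT5* went from 224300 at d0 to 109400 at d20, and that of *KRT14* from 72770 to 91700. Among markers of other cells, 4 of 5 blood markers, 2 of 4 endothelial markers and all 3 adipocyte markers were under the filter for testing. Of those tested, *CD68* moved with time (summed blood markers 368 to 374 at d0 and 725 to 776 at d15). The endothelial gene *KDR* was 6.21-fold higher at d15 and 11.02-fold lower at d10, where it had only 2, 4 and 3 reads, so the d10 fold is uncertain. *PECAM1* was 4.28-fold lower at d15 and lower on all 6 days. The endothelial sum was 81.1 to 105 at d0, 68.5 to 98.9 at d4, 67.0 to 245 at d7, 268 to 290 at d15, and between 22.9 and 40.2 in the libraries of d1, d10 and d20, with *PTPRC* at most 1.04 and *CDH5* at most 1.06 in any library. The part of these markers in the results was not tested. In bulk samples fewer cells of a type and less RNA per cell cannot be told apart.

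TGFβ treatment was followed by an exchange of binding proteins: *IGFBP3* rose from near the bottom to the top of the family, *IGFBP2* and *IGFBP5* fell, *IGFBP4* and *IGFBP7* rose, and *IGFBP6* changed by less than 2-fold. Values are normalized read counts, that is, reads over the size factor of their library, and differences are on the scale log2(value + 1), tested with limma over 13343 genes with a mean of at least 10. Of the 8 genes 7 passed this filter, and *IGFBP5* did not. At an adjusted p under 0.05, 7 of the 7 differed from d0 on d4, d7 and d15, 6 on d1 and d10, and 5 on d20. Among all genes tested the share past the same threshold was 59.8% (d1), 72.2% (d4), 67.2% (d7), 67.8% (d10), 76.5% (d15) and 62.7% (d20), so passing it is common in this series.

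With at least a 2-fold difference asked as well, 4 of the 7 were higher on d7 and d15, 3 on d4 and d20, and 2 on d1 and d10. For all genes that share was, in order of day, 6.47%, 9.68%, 8.79%, 6.94%, 11.7% and 7.51%. *IGFBP2* was the 1 gene of the 7 at least 2-fold lower on each of the 6 days, where 3.87%, 5.03%, 2.93%, 7.34%, 8.66% and 4.72% of all genes were. The median log2 difference of the 7 was, in the same order, 0.21, 0.94, 1.08, 0.48, 1.13 and 0.48, beside at most 0.03 in size for all genes tested.

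**Figure D1:**
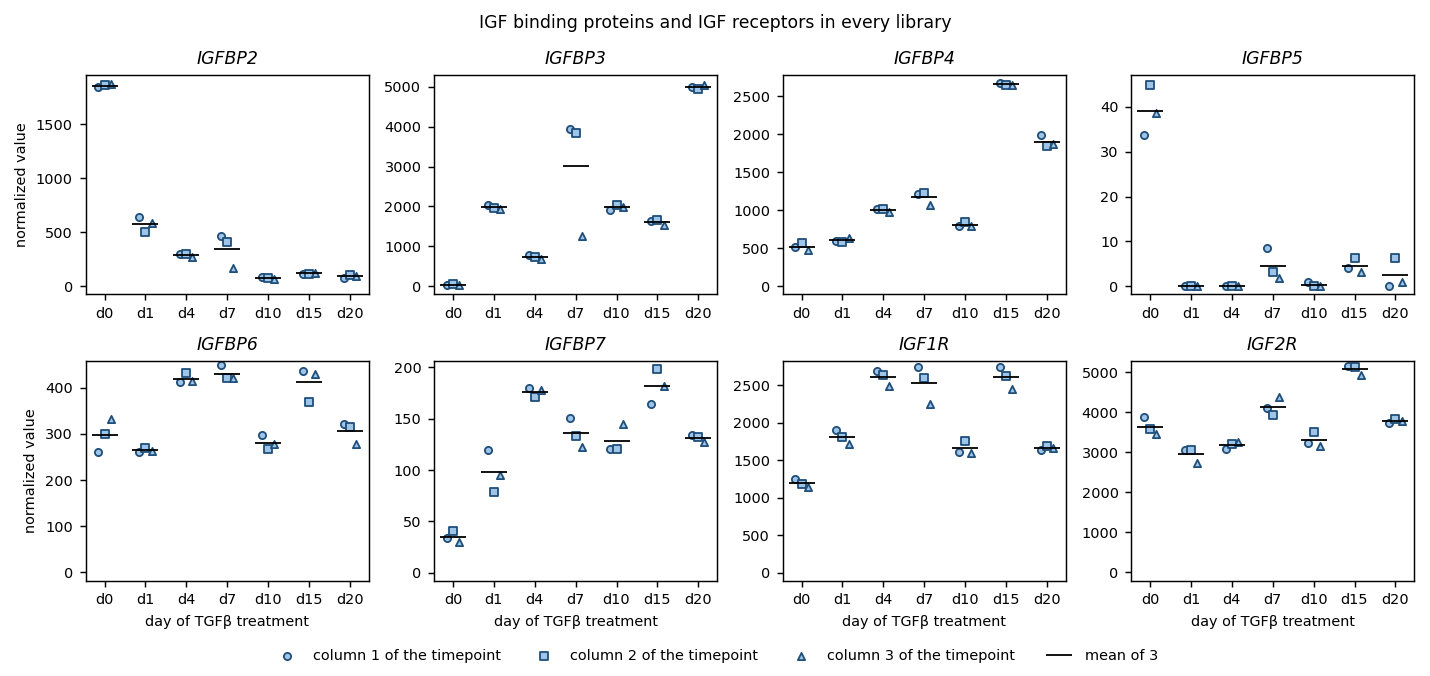
Normalized value of each of the 8 genes in each of the 21 libraries, by day of TGFβ treatment, with linear axes that differ between panels; symbols are the 3 libraries of a timepoint in column order and the bar is their mean. *IGFBP3* went from a mean of 42.6 at d0 to 4999 at d20 and *IGFBP2* from 1858 to 92.2, and at d7 the third library lay apart from the other two in both.

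*IGFBP3*, the main carrier of IGF in blood and a gene known to answer to TGFβ, had the largest change of the family. Its normalized values were 41.8, 47.5 and 38.6 at d0, and 2033, 1970.2 and 1925 after 1 day. They were 779, 742 and 689 at d4, then 3951, 3836 and 1264 at d7. The later values were 1919, 2048 and 1980.1 at d10, 1646, 1652 and 1535 at d15, and 4996, 4950 and 5052 at d20. Every treated library was above every untreated one, and the course was not a steady rise, with mean values up at d1, down at d4, up at d7, down at d10 and d15, and up at d20. The log2 difference from d0 was 5.51 at d1 (standard error 0.24, adjusted p = 2.9e-14, limma), 4.08 at d4, between 5.21 and 5.94 on d7, d10 and d15, and 6.85 at d20, the last a 115-fold difference (adjusted p = 4.73e-16, limma).

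The steps between neighbouring days were tested apart from the untreated cells. *IGFBP3* fell by 1.42 on the log2 scale from d1 to d4 (adjusted p = 3.4e-05, limma), rose by 1.86 to d7 (adjusted p = 2.71e-06, limma), and rose by 1.63 from d15 to d20 (adjusted p = 3.99e-06, limma). The step from d7 to d10 was -0.43 (adjusted p = 0.119, limma) with the third d7 library and -0.97 (adjusted p = 1.29e-18, limma) without it. Leaving this library out also cut the standard error from 0.24 to 0.05 for the other days, and the step from d10 to d15, -0.30, then went from an adjusted p of 0.265 to 1.39e-06 (limma). In the order of its levels d20 came first, clear of all other days. The d7 libraries spanned those of d10, d1 and d15 because of the third one, d10 and d1 overlapped each other and stood above d15, and d4 and d0 each stood below.

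*IGFBP2*, which binds IGF2 with high affinity and is secreted by many epithelial cells, ran the other way. It was 1843, 1860.1 and 1871 at d0, 644, 505 and 589 at d1, and 299, 298 and 276 at d4. At d7 it was 466, 412 and 171, and the third library was the lowest. From d10 on it was low: 83.6, 76.8 and 68.5 at d10, 116, 118 and 123 at d15, and 79.5, 104 and 93.0 at d20. No treated library reached the untreated range. The log2 difference from d0 was -1.69 at d1 (standard error 0.22, adjusted p = 1.12e-06, limma), -2.67 at d4, -2.53 at d7, then -4.59 at d10 (a 24.1-fold difference, adjusted p = 8.2e-14, limma), -3.95 at d15, with -4.33 on the last day.

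Most of the loss of *IGFBP2* came in 3 steps, d0 to d1, d1 to d4 (-0.99, adjusted p = 0.000552, limma) and d7 to d10 (-2.06, adjusted p = 4.22e-08, limma). Between d10 and d15 it rose by 0.64 (adjusted p = 0.0113, limma), or by 0.37 with quantile normalization (adjusted p = 0.126, limma). The difference from d15 to d20 was -0.38, with an adjusted p of 0.128 with all libraries and 0.000247 without the third d7 library (limma). From d4 to d7 it was 0.14 (adjusted p = 0.621, limma) with all libraries, and without the third d7 library it was 0.59 (adjusted p = 3.19e-06, limma). Without that library the d7 difference from d0 was -2.08 in place of -2.53. The d7 and d4 libraries overlapped, as did those of d20 and d10.

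*IGFBP5*, a binding protein with high affinity for extracellular matrix, is the chromosomal neighbour of *IGFBP2* and was also lost. It was low even in untreated cells, at 33.8, 45.0 and 38.6, and was 0 in all 6 libraries of d1 and d4. Later it was 8.44, 3.13 and 1.86 on d7, 1.00, 0 and 0 on d10, 4.08, 6.33 and 3.11 on d15, and 0, 6.31 and 0.98 on d20. The untreated libraries held 130 reads of it in all, against 13 (d7), 1 (d10), 14 (d15) and 7 (d20) later on. With a floor of 3 reads per library, it was at least 12.8-fold lower at d1 and at least 13.02-fold lower at d4. Against d0 the ratio of pooled reads was 8.997-fold lower at d7 (exact 95% interval 5.08 to 17.4), 8.55-fold at d15 (4.92 to 16.1) and 16.3-fold at d20 (7.71 to 41.4). With 1 read at d10 the ratio was 120-fold with an interval of 21.2 to 4773, and these intervals cover counting error only. Without the third d7 library the d7 ratio was 6.80-fold (3.68 to 13.96). In a fit without the filter on low values its adjusted p against d0 was at most 6.55e-05 on each day (limma), and no treated library reached the untreated range. The span of an annotated antisense gene, introns included and not analysed here, takes in 1062 exon bases of *IGFBP5*.

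*IGFBP4*, which inhibits IGF action until it is cut by proteases, had already risen at d4 and was highest at d15. Its values at d0 were 522, 569 and 476, at d1 597, 579 and 633, and at d4 1015, 1018 and 974. They were 1216, 1226 and 1069 at d7, and 792, 851 and 792 at d10. At d15 they were 2675, 2644 and 2647, and at d20 1983, 1839.7 and 1877. The treated libraries were above the untreated ones at every timepoint, though barely so at d1. The log2 difference from d0 was 0.21 at d1 (standard error 0.06, adjusted p = 0.00478, limma), 0.94 at d4, 1.16 at d7 and, after 0.64 at d10, 2.35 at d15 (5.09-fold, adjusted p = 1.05e-18, limma) and 1.86 at d20. With libraries set to a common total the d1 difference was 0.02 (adjusted p = 0.808, limma).

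All 5 neighbouring steps of *IGFBP4* passed the threshold. It rose by 0.73 from d1 to d4, by 0.22 to d7 (adjusted p = 0.00427, limma) and by 1.71 from d10 to d15 (adjusted p = 4.15e-16, limma). It decreased by 0.53 from d7 to d10 and by 0.48 from d15 to d20 (adjusted p = 3.01e-07, limma). No neighbours in the order of its 7 levels overlapped.

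*IGFBP7*, a low-affinity IGF binder found around vessels and in matrix, was raised on every treated day. It was 33.8, 40.7 and 29.7 at d0, 119, 79.0 and 95.3 at d1, and 179.8, 171 and 178 at d4. Later values were 151, 133 and 123 (d7), 120.4, 120.5 and 145 (d10), then 164, 198 and 182 at d15, and 135, 133 and 127 at d20. Every treated library was above the untreated range, and the d15 and d4 libraries, which were the highest, overlapped. The log2 difference was 1.46 at d1 (standard error 0.14, adjusted p = 7.04e-09, limma) and reached 2.36 at d15 (5.13-fold, adjusted p = 9.46e-13, limma), with 2.32 at d4 and 1.86 to 1.94 on d7, d10 and d20. Its 3′ end overlaps that of *POLR2B*, a subunit of RNA polymerase II on the opposite strand (396 exon bases of *IGFBP7* lie in it). The span of the antisense gene *IGFBP7-AS1*, introns included and not analysed here, takes in 509 exon bases of *IGFBP7*. Whether reads were counted by strand is not given in the sources used here. *POLR2B* was 3178 at d0, 2562 at d4 and 3257 at d20 (log2 difference -0.31 at d4 and 0.03 at d20), where *IGFBP7* rose by 2.32 and 1.90.

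*IGFBP6*, which prefers IGF2, had the smallest changes among the binding proteins. It was 261, 299 and 331 at d0, 260.4, 269.7 and 263 at d1, and 411, 431 and 413 at d4. It was 449, 420.2 and 421 at d7 and then 298, 267 and 278 at d10. The last days gave 436, 369 and 429.9 at d15 and 322, 315 and 278 at d20. Libraries of d1, d10 and d20 overlapped the untreated ones, and those of d4, d7 and d15 lay above. The log2 difference from d0 was 0.50 at d4 (standard error 0.08, adjusted p = 1.38e-05, limma), 0.54 at d7 and 0.47 at d15. It was -0.16 at d1 (adjusted p = 0.0996, limma), -0.07 at d10 (adjusted p = 0.434) and 0.04 at d20 (adjusted p = 0.67), and with libraries set to a common total it was -0.35 at d1 and -0.30 at d10, both past the threshold, and -0.16 at d20. Of the neighbouring steps, d4 to d7 did not pass the test (0.04, adjusted p = 0.728, limma). The others did: 0.66 from d1 to d4, -0.61 from d7 to d10, 0.55 from d10 to d15 and -0.43 from d15 to d20 (adjusted p = 8.01e-05, limma).

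**Figure D2:**
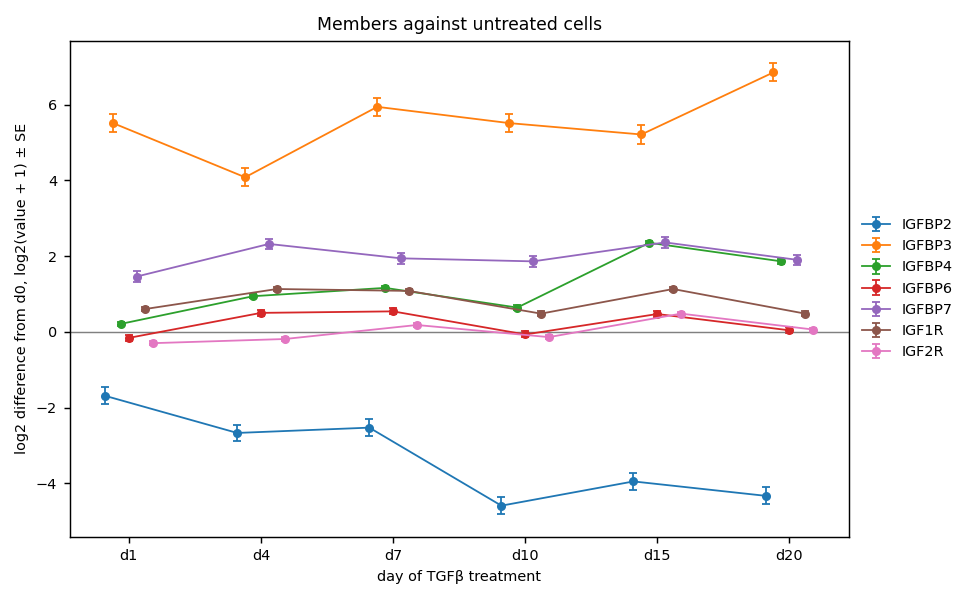
Log2 difference from untreated cells on the scale log2(value + 1), with the limma standard error, by day of TGFβ treatment for the 7 genes that passed the filter, points being shifted sideways so that they do not hide each other. *IGFBP3* lay between 4.08 and 6.85 and *IGFBP2* between -4.59 and -1.69, and *IGF2R* stayed within 0.48 of zero.

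To compare levels between binding proteins, values were divided by the length of the exons of each gene in GENCODE 29 (for instance 1568 bases for *IGFBP2* and 2633 for *IGFBP3*). Per kilobase, *IGFBP2* made up 70.3% ± 1.11 (SD, n = 3) of the summed signal of the 6 binding proteins at d0, *IGFBP4* 14.1% ± 1.19, *IGFBP6* 13.1% ± 1.397, and *IGFBP3* 0.961% ± 0.0933. After 1 day *IGFBP3* made up 45.7% ± 1.56 and *IGFBP2* 22.4% ± 1.83. At d4 *IGFBP4* was the largest, at 34.3% ± 0.163, ahead of *IGFBP6* (23.5% ± 0.709) and *IGFBP3* (21.03% ± 0.775). *IGFBP3* led again at d10 with 51.9% ± 0.848, *IGFBP4* at d15 with 52.4% ± 0.240, and *IGFBP3* at d20 with 60.8% ± 0.874. *IGFBP2* was 1.89% ± 0.274 of the sum at d20.

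The sum itself, per kilobase, was 1685 ± 35.0 (SD, n = 3) without TGFβ, 1645 ± 68.2 at d1, 1330 ± 37.5 at d4 and 1451 ± 25.5 at d10. It was 2302 ± 25.0 at d15 and 3121 ± 37.9 at d20, above each d0 library, and at d7 it was 2769, 2664 and, in the third library, 1457. The make-up at d7 depended on the library, with *IGFBP3* at 54.2% and 54.7% in the first and second and at 32.96% in the third, where *IGFBP4* was 33.4%. These shares are of RNA and rest on the exon lengths used.

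**Figure D3:**
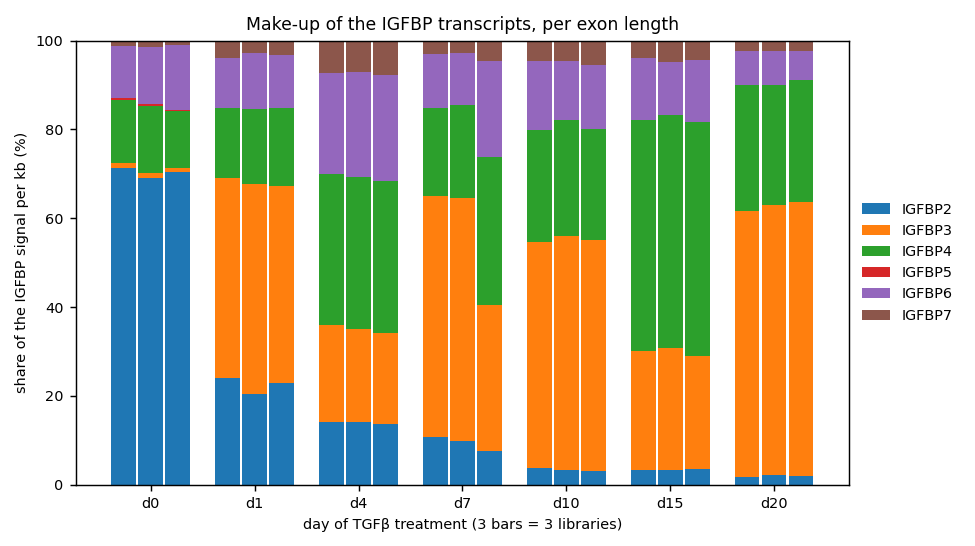
Share of each of the 6 binding proteins in their summed signal per kilobase of exon, in percent, with 1 stacked bar per library and 3 bars per timepoint. *IGFBP2* took 70.3% at d0 and 1.89% at d20, *IGFBP3* and *IGFBP4* alternated as the largest share under TGFβ, and the third bar of d7 differed from its neighbours.

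*IGF1R*, the signalling receptor, was higher on all treated days. It was 1242, 1186 and 1139 at d0, 1900.5, 1805 and 1719 at d1, and 2684, 2635 and 2493 at d4. The d7 values were 2744, 2593 and 2244, those of d10 1613, 1753 and 1599.7, those of d15 2739.98, 2624 and 2453, and those of d20 1639, 1686 and 1663. Treated and untreated libraries did not overlap at any timepoint. Levels at d15, d4 and d7 overlapped each other, as did those of d20 and d10, and d1 lay below the former, above d20 and overlapping d10. The log2 difference from d0 was 0.60 at d1 (standard error 0.06, adjusted p = 2.72e-08, limma), 1.13 at both d4 and d15 (2.19-fold at each, adjusted p = 3.41e-13 at d15, limma), 1.08 at d7, and 0.48 at both d10 and d20.

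The receptor thus went up, down, up and down again after d1. The steps were 0.53 from d1 to d4, -0.61 from d7 to d10, 0.65 from d10 to d15 and -0.65 from d15 to d20 (adjusted p = 5.21e-09, limma), while d4 to d7 gave -0.05 (adjusted p = 0.539, limma; 0.04 without the third d7 library). The span of an annotated antisense gene, introns included, takes in 7470 of the 12235 exon bases of *IGF1R*. Reads from any exon bases that the pair shares could not be told apart if strand was not used.

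*IGF2R*, the mannose 6-phosphate receptor, changed by less than 2-fold throughout. It was 3872, 3589 and 3457 at d0, 3058, 3050.1 and 2744 at d1, and 3089, 3197 and 3265 at d4. It was 4095, 3928 and 4371 on d7, 3236, 3496 and 3165 on d10, 5163, 5120.2 and 4924 on d15, and 3735, 3838 and 3792 at d20. Libraries of d1 and d4 lay below the untreated range, those of d7 and d15 above it, and those of d10 and d20 overlapped it. The log2 difference from d0 was -0.30 at d1 (standard error 0.05, adjusted p = 2.79e-05, limma), -0.19 at d4, -0.14 at d10 (adjusted p = 0.018, limma), 0.18 at d7 (adjusted p = 0.0032, limma; -0.01 with libraries set to a common total) and 0.48 at d15 (adjusted p = 2.09e-08, limma). At d20 it was 0.06 (adjusted p = 0.317, limma), and -0.14 with libraries set to a common total, which passed the threshold (adjusted p = 0.0214, limma). The small d7 difference missed the threshold with quantile normalization (0.10, adjusted p = 0.067, limma), and the d10 difference missed it without d0 library 1, d10 library 1 or d10 library 3 (-0.10, -0.13 and -0.11).

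The 2 days that differed most from d0 in opposite directions were compared directly. *IGF2R* was higher at d15 than at d1 by 0.78 on the log2 scale (standard error 0.05, adjusted p = 9.68e-12, limma), in 3 of 3 libraries, a contrast in which 76.0% of all genes tested passed. The days were picked for their extreme values, and this p does not allow for that choice. In each library the ratio of *IGF1R* to *IGF2R* could also be followed. Its log2 change from the d0 mean was 0.91 ± 0.04 (SD, n = 3) at d1, rose to 1.32 ± 0.09 at d4, and was 0.90 ± 0.22 (d7), 0.62 ± 0.01 (d10), 0.65 ± 0.05 (d15) and 0.42 ± 0.00 (d20) afterwards. Each treated library was above the d0 libraries, which lay between -0.03 and 0.02. The d7 libraries were at 1.04 and 1.01, with the third at 0.65.

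*INSR*, the insulin receptor, can pair with the IGF1 receptor and binds IGF2 in one of its splice forms. It was 77.4, 80.6 and 89.1 at d0, 85.8, 78.0 and 65.5 at d1, 294, 266 and 272 at d4, and 233, 211 and 146 at d7. It was 56.7, 80.7 and 70.4 at d10, 267, 288 and 255 at d15, and 112, 84.2 and 87.2 at d20. Only the libraries of d4, d7 and d15 lay clear above the untreated ones, the same days on which *IGF1R* was highest. The log2 difference was 1.74 at d4 (standard error 0.16, adjusted p = 2.06e-09, limma), 1.22 at d7 (1.42 without the third library) and 1.70 at d15, and it was -0.11 at d1 (adjusted p = 0.552), -0.26 at d10 (adjusted p = 0.148) and 0.19 at d20 (adjusted p = 0.303). The related *INSRR* was at most 3.91 in any library. The course of *IGF1R* was not particular to receptors. Of 11483 genes, 104 had a Pearson correlation above 0.95 with it over the 7 timepoint means of log2(value + 1).

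**Figure D4:**
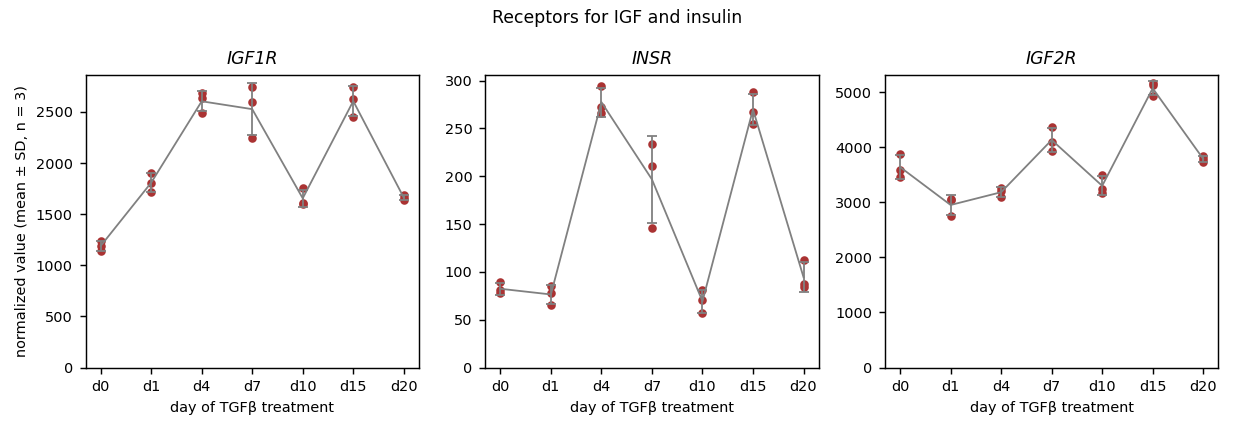
Normalized value of *IGF1R*, *INSR* and *IGF2R* by day of TGFβ treatment, with linear axes from 0 that differ between panels; points are libraries, and the line and bars give the mean and SD of 3. *IGF1R* and *INSR* both stood high at d4, d7 and d15 and lower at d1, d10 and d20, and *IGF2R* had its highest mean, 5069, at d15.

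Between neighbouring timepoints 4 to 6 of the 7 genes passed, a share close to that of all genes or above it, so the counts say little about these genes in particular. From d1 to d4, 4 rose and 2 fell, from d4 to d7, 3 rose and 1 fell, and from d7 to d10, 5 fell and none rose. From d10 to d15, 6 rose and none fell, and from d15 to d20, 1 rose (*IGFBP3*) and 5 fell. The share of all genes past the same threshold, in either direction, was 64.9%, 51.1%, 71.4%, 79.8% and 74.1% for these steps. Without the third d7 library 7, 4, 6, 7 and 7 of the 7 genes passed, beside 70.7%, 59.3%, 75.3%, 82.2% and 77.5% of all genes in the same fit. The d7 difference from d0 was then 6.48 for *IGFBP3*, 1.23 for *IGFBP4*, 0.55 for *IGFBP6*, 2.01 for *IGFBP7*, 1.17 for *IGF1R* and 0.14 for *IGF2R* (adjusted p = 0.00444, limma).

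The ligands were hardly measured in these cells. *IGF1* was between 0.99 and 8.76 in every library, *IGF2* was at most 6.12 and was 0 in all libraries of d0, d1 and d7, and *INS* was 0 in all 21. Of the binding proteins that are not in the set, *IGFBP1*, the neighbour of *IGFBP3* on chromosome 7, was 0 in all 21 libraries. *IGFBPL1* was at most 1.05, and *IGFALS*, which encodes the subunit that stabilizes IGF in blood, was at most 6.85. None of these passed the filter, so none was tested. At d15 *IGF2* was 6.12, 3.62 and 2.07, the highest of its few values. Any IGF in serum or medium is outside what was measured.

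The wider pathway was read from 60 listed genes, of which 50 passed the filter. At least 2-fold higher were 12 on d4 and d15, 9 on d7, d10 and d20, and 7 on d1, and at least 2-fold lower were 2 on d10, 1 on d1 and d15, and 0 on the rest. Of all genes tested, 6.47% (d1) to 11.7% (d15) were at least 2-fold higher and 2.93% (d7) to 8.66% (d15) at least 2-fold lower. The median log2 difference of the 50 was 0.05 at d1 and 0.19 to 0.21 on the other days, beside at most 0.03 for all genes tested. Without the third d7 library 9 of the 50 were higher and 0 lower at d7, with a median of 0.29. Counted over the whole course, 17 of the 50 (34.0%) were higher and 2 (4.0%) lower, beside 16.5% and 15.4% of all genes tested. The lists were chosen with earlier results of these data known, and the gap was not tested.

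Of the 7 listed proteases that cut binding proteins, 5 were tested and 3 reached a 2-fold rise on at least 1 day, as 16.5% of all genes tested did. *PAPPA2*, a pappalysin that cuts *IGFBP5* and *IGFBP3* proteins, was at least 2-fold higher on all 6 days and differed most at d15 (log2 difference 3.21, standard error 0.18, adjusted p = 6.44e-13, limma). *ADAM12*, a metalloprotease that cuts *IGFBP3* and *IGFBP5* proteins, was higher on 5 days with 4.2 at d10, and *HTRA1*, a secreted serine protease, on 3 days with 1.31 at d7 (1.46 without the third d7 library). *PAPPA* was at most 2.10 in any library. The inhibitors of pappalysins both passed at d20, *STC1* by 2.60 and *STC2* by 1.16 (adjusted p = 1.35e-08, limma). *LRP1*, an endocytic receptor that binds the *IGFBP3* protein, was at least 2-fold lower at d10 and higher at d15, where the difference was 1.28.

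Among 13 tested adaptors and regulators at the receptors, 6 were at least 2-fold higher on at least 1 day and none lower. Of all genes tested 16.5% were higher and 15.4% lower by the same count. *SOCS1* and *SOCS3*, feedback inhibitors of cytokine signalling that also act on insulin receptor substrates, were higher on all 6 days, with 2.64 at d1 and 3.77 at d15 (adjusted p = 2.34e-14, limma). The substrates *IRS1* and *IRS2* were highest against d0 at d10 (1.03) and d15 (1.56), *GRB10*, which restrains the IGF1 and insulin receptors, at d4 (1.25), and *SOCS2* at d15 (1.06). Of 17 tested PI3K, AKT and mTOR genes, *PIK3CD* was higher on all 6 days (2.05 at d1) and *PIK3R3* was lower on 3 days (-1.21 at d10). *IGF2BP1* and *IGF2BP2*, which bind *IGF2* mRNA among others, were higher on 5 days and on 1 day (1.95 at d20 and 1.03 at d4). None of the 7 genes of mannose 6-phosphate sorting reached 2-fold on any of the 6 days.

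**Figure D5:**
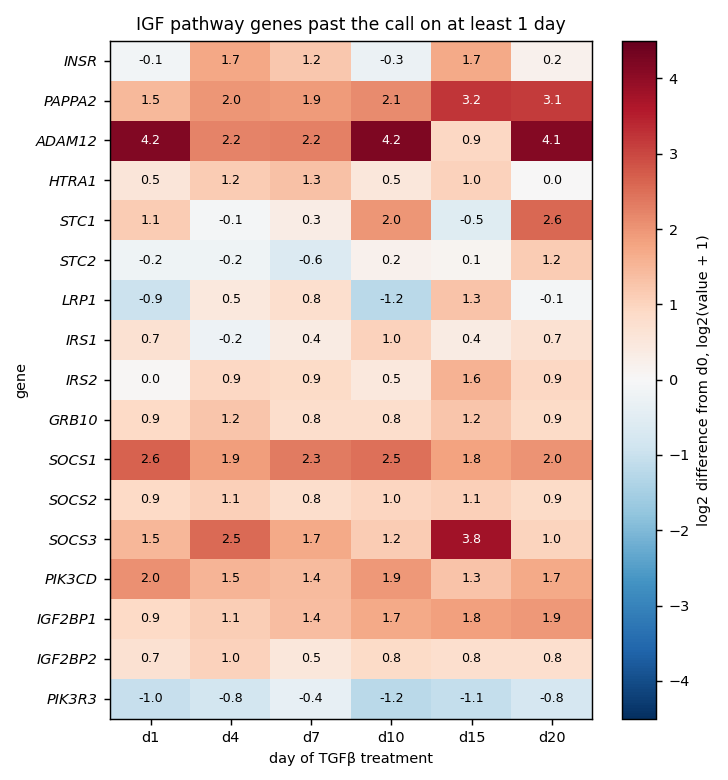
Log2 difference from untreated cells, on the scale log2(value + 1), for 17 listed pathway genes that passed an adjusted p of 0.05 with at least a 2-fold difference on at least 1 day; rows are genes, columns days of TGFβ treatment, red is higher and blue lower. *PAPPA2*, *SOCS1*, *SOCS3* and *PIK3CD* were red on every day, and *ADAM12* was strongest at d1, d10 and d20.

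Genes with the most similar course were looked for among 11483 genes, by Pearson correlation of the 7 timepoint means of log2(value + 1). These 7 points share their libraries, and many genes follow any given course in such a series, so the values are a description. The closest to *IGFBP3* were *MGC16121* (r = 0.993) and *GUK1* (r = 0.992), and to *IGFBP2* the carbonic anhydrase *CA2* (r = 0.989) and the polarity gene *CRB3* (r = 0.987). *CA2* went from 678 ± 36.9 (SD, n = 3) at d0 to 63.8 ± 9.42 at d20, and *CRB3* from 208 ± 9.43 to 37.3 ± 5.90. The correlation takes no account of the size of a change. Beside *IGFBP3*, *MGC16121* went from 63.4 ± 6.96 to 605 ± 87.0 and *GUK1* only from 2756 ± 140 to 4456 ± 98.8. *IGFBP4* was closest to *CDC42BPA* (r = 0.994) and the matrix gene *ABI3BP* (r = 0.983), and *IGFBP7* to *RAB11FIP5* and *VSTM2L* (both r = 0.995). For *IGF1R* they were *WDR91* (r = 0.993) and the BMP receptor *BMPR2* (r = 0.991), for *IGF2R* the phosphatase *PPM1D* (r = 0.975) and *SURF1* (r = 0.974), and for *IGFBP6* one was *MTRNR2L9* (r = 0.989), a gene with near-identical copies whose reads are uncertain. The number of genes with r above 0.95 ran from 19 for *IGFBP4* to 138 for *IGFBP7*.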

How the data were processed

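Bulk RNA sequencing of HMLE cells gave 21 libraries, 3 per timepoint, which the study's data statement calls biological triplicates. The submitters' processing notes name hg19, STAR 2.7 and Salmon 1.4, with no role given. The values the authors deposited are a normalized signal for 23201 gene symbols: read numbers over a size factor for the library, rounded to 2 decimals. Within that rounding at least 99.99% of values up to 5000 in a library came back as whole reads. Columns name the timepoint but no replicate, and libraries are numbered by the order of the columns within a timepoint.

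Genes with a mean of at least 10 (13343) were fitted with limma 3.58.1 (R 4.3.3, empirical Bayes with trend) on log2(value + 1), with one mean per timepoint and Benjamini-Hochberg adjustment over all genes within a contrast. Counts of changed genes also needed at least a 2-fold difference. edgeR 4.0.16 (quasi-likelihood) and DESeq2 1.42.0 on the recovered reads were alternatives, as were a pseudocount of 10, no filter, a common library total, quantile normalization, only the timepoints compared, no minimum fold and leaving out each library.

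The named genes were the 8 members, listed pathway genes at least 2-fold changed past the threshold on at least 1 day (with the day of the largest change), the ligands, other binding proteins and insulin receptors, check genes, and per member the 2 genes with the highest correlation above a mean of 50. A few genes that this rule names are not reported here. The members and lists were chosen with earlier results of these data known. Promoters are RefSeq's (GRCh38.p14); exon lengths and overlaps are from GENCODE 29 on GRCh38, and no hg19 coordinates were used.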

Additional observations from a re-analysis of the deposited data

Results flagged for a closer look

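*IGF2R* differed between days of treatment in opposite directions from untreated cells. Its log2 difference from d0 was -0.30 at d1 and 0.48 at d15, and the direct contrast of d15 with d1 was 0.78 (standard error 0.05, adjusted p = 9.68e-12, limma), with all 3 libraries of d15 above all 3 of d1. The 2 days were picked as the extremes of this gene, which the p does not allow for.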

How the results depend on the processing

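No paired analysis was possible because replicate numbers are absent from the column names. The 77 differences of the 7 tested genes gave 1078 values under the alternatives, and 1037 of these had the same direction and call. *IGFBP2* was at least 2-fold lower and *IGFBP3* and *IGFBP7* at least 2-fold higher on every day under each alternative that was run.

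With no minimum fold change the number of genes higher was 4 at d1, 5 at d4 and 4 at d10, and the number lower 2 at d1, d4 and d10. With no filter on low values *IGFBP5* entered, and 2 genes were at least 2-fold lower at d1, d4, d7, d10, d15 and d20. Setting libraries to a common total moved the median difference of all genes by -0.16 (d15) to -0.23 (d10). There, 2 genes were at least 2-fold higher at d4 in place of 3, with *IGF1R* at 0.93, and 2 at d7 in place of 4. *IGF2R* turned to -0.01 at d7 and -0.14 at d20 (adjusted p = 0.0214, limma) and *IGFBP6* to -0.16 at d20 (adjusted p = 0.0853, limma). These values lie above the shift of their day. Quantile normalization turned *IGF2R* to -0.09 at d20 and the d7 to d10 step of *IGFBP7* to 0.17.

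The third d7 library was left out of every contrast as an alternative chosen after seeing the data. The d4 to d7 step of *IGF1R* was then 0.04, and that of *IGFBP7* -0.31 (adjusted p = 0.0581, limma). Leaving out 1 library at a time gave -0.16 to 0.01 for *IGFBP6* at d10 and -0.05 to 0.13 at d20, -0.13 to 0.59 for the d4 to d7 step of *IGFBP2*, -0.11 to 0.04 for that of *IGF1R*, and -0.17 to 0.00 for the d7 to d10 step of *IGFBP7*. The *IGF2R* call at d10 was lost without d0 library 1 or d10 library 1 or 3 (adjusted p = 0.126, 0.0612 and 0.0904, limma), and *IGFBP6* at d1 passed without d0 library 1 (-0.25, adjusted p = 0.0148, limma). The cause of these shifts was not tested. Genes with few reads, such as *IGFBP5*, are limited by depth.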
